A study of Mus musculus with 30 samples.

Results

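The response of bone marrow derived macrophages to prostaglandin E2 (PGE2) was compared between cells carrying a short hairpin RNA (shRNA) against Etv1 and cells carrying a control shRNA. The comparison used 12 of the 30 RNA-seq libraries of the series, 3 in each of 4 groups. Etv1 shRNA cells received IL-4 with PGE2 or IL-4 alone, and so did control shRNA cells. The quantity tested for each gene was the PGE2 effect in Etv1 shRNA cells minus the PGE2 effect in control shRNA cells, each PGE2 effect being the log2 fold change of IL-4 with PGE2 against IL-4 alone. A value below 0 means a smaller rise or a larger fall under PGE2 in Etv1 shRNA cells, or a fall there and a rise in control shRNA cells. A value above 0 means the opposite. The members were chosen by their labels, not by their expression.

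All cells were grown from C57BL/6 mouse marrow with CSF-1 at 20 ng/mL and were mature on day 7, and hairpins were delivered by lentivirus, per the labels. IL-4 was given at 20 ng/mL and PGE2 at 10 µM. The labels name 1 hairpin group for Etv1 and 1 for the control and give neither the hairpin sequences nor a stimulation time. They also leave unsaid whether the 3 libraries of a group are separate cultures, so the p-values reflect only how far those libraries spread, which may be technical. A further 6 libraries of wild type macrophages without a hairpin, 3 treated with both agents and 3 given only IL-4, gave a PGE2 effect that shares no library with the hairpin groups.

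PGE2 is a lipid mediator that acts on macrophages mainly through the receptors EP2 and EP4, which raise cyclic AMP (cAMP). The cAMP-dependent kinase PKA then phosphorylates CREB, a transcription factor that binds the cAMP response element (CRE) in the promoters of early genes such as Crem and the Nr4a receptors, and these genes also feed back on the pathway. Etv1 is an ETS-family transcription factor of the PEA3 subgroup, which is regulated by ERK and PKA phosphorylation in other cell types. IL-4 drives the alternative activation of macrophages, marked in the mouse by Arg1, Retnla and Chil3.

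Etv1 itself, at chr12:38779380-38870484 on GRCm38, had 9.08, 7.72 and 9.86 CPM in Etv1 shRNA cells with PGE2 and 6.002, 4.97 and 5.02 CPM in those without it. In control shRNA cells the levels were 29.1, 21.8 and 33.1 CPM with PGE2 and 15.3, 11.5 and 14.9 CPM without it (CPM, counts scaled to the library total). All Etv1 shRNA libraries were below all control shRNA libraries in both conditions. PGE2 raised Etv1 under both hairpins, by 0.75 ± 0.20 in Etv1 shRNA cells and 1.02 ± 0.16 in control shRNA cells. Values here and below are log2 fold change ± SE (n = 3 libraries a group), the SE being approximate and back-calculated from the F test. The difference of -0.28 ± 0.25 (edgeR adjusted p = 0.549) did not pass the test. Etv1 RNA was thus lowered but not removed, and what remained still rose under PGE2.

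The 12 libraries held 8990406 to 30473040 counts, with a median of 9909258.5. Macrophage genes were high in all 12: the summed level of 18 macrophage identity genes was 12883 to 13518 CPM in Etv1 shRNA cells with PGE2 and 12525 to 13068 CPM without it, against 23109 to 24875 CPM in control shRNA cells with PGE2 and 19207 to 20729 CPM without it. Replicate 2 of the control shRNA stood apart from replicates 1 and 3 in both conditions. Without both of its libraries 1416 genes had a called value of the PGE2 effect, Etv1 shRNA minus control shRNA, against 1438 with them. Lymphocyte markers summed to 12.8 to 29.5 CPM in Etv1 shRNA cells with PGE2 and 14.9 to 30.4 CPM without it, against 1.06 to 1.83 CPM in control shRNA cells with PGE2 and 1.39 to 1.80 CPM without it, with Cd3e at 0 throughout and 7 of 9 markers at 0 in each group. Most of that sum in Etv1 shRNA cells was Ighm, the immunoglobulin mu chain, at a mean of 22.4 CPM in Etv1 shRNA cells with PGE2 and 0.741 CPM in control shRNA cells with PGE2. Neutrophil markers summed to 7.70 to 10.4 CPM in Etv1 shRNA cells with PGE2 and 8.56 to 13.6 CPM without it, against 32.1 to 37.2 CPM in control shRNA cells with PGE2 and 47.7 to 51.6 CPM without it, with Ly6g, Elane and Camp at 0 throughout. Of 6 lists of markers for other cell types, including also dendritic, stromal, mast and erythroid cells, few members were tested. These were 4 of 12 neutrophil markers, 3 of 8 stromal markers and 1 each for dendritic cells, lymphocytes, mast cells and erythroid cells. None had a called difference in PGE2 effect by edgeR, at an unadjusted p under 0.05 or by DESeq2. With 11.6% of all genes called, the absence of calls among so few says little. The part of other cells in the results was not tested. In bulk RNA, fewer cells of a type and less RNA per cell cannot be told apart.

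The difference in PGE2 effect passed the test in 1438 of 12382 genes tested (11.6%), a gene being called at an edgeR adjusted p under 0.05. It was above 0 in 747 (6.03%) and below 0 in 691 (5.58%). The difference was at least 2-fold in 88 of the 747 and in 156 of the 691. PGE2 itself changed 5878 genes in Etv1 shRNA cells (47.5%; 24.6% raised and 22.8% lowered) and 7360 in control shRNA cells (59.4%; 29.3% raised and 30.1% lowered). Replicate numbers paired libraries within a hairpin, and with the replicate number as a block 2563 genes were called, 1376 above 0 and 1187 below 0, among them 1434 of the 1438. For 44 of the 1438 genes the difference of the changes in mean CPM had the opposite sign to the log2 difference, and among the genes described below these were Csf1, Irf4, Lpl, Maf, Msmo1, Ptprf, Rgs1, Sqle and Vcan. The hairpins themselves differed in 6722 genes with PGE2 (54.3%; 27.6% higher and 26.7% lower in Etv1 shRNA cells) and in 6317 genes without it (51%; 25.4% higher and 25.6% lower).

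**Figure D1:**
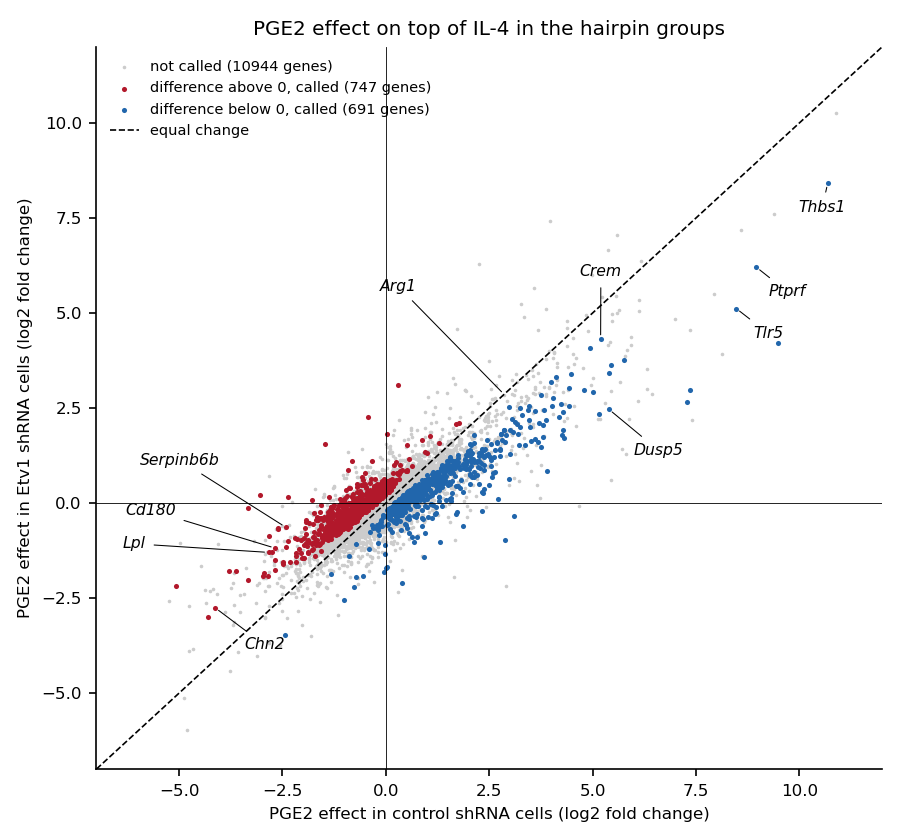
PGE2 effect of each tested gene in Etv1 shRNA cells (vertical axis) against that in control shRNA cells (horizontal axis), both as log2 fold change of IL-4 with PGE2 against IL-4 alone. Red points mark the 747 genes with a called difference above 0, blue points the 691 below 0 and grey points the 10944 not called; the dashed line marks equal change, and the called genes raised in control shRNA cells lie mostly below it.

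Most genes that PGE2 raised at least 2-fold had a fitted difference below 0, and most that it lowered had one above 0, while fewer passed the test. This was read from the wild type libraries, so that the choice of genes did not use the hairpin groups. In wild type cells PGE2 changed 59.4% of genes, with 29.9% raised and 29.5% lowered. It raised 679 genes at least 2-fold, of which 612 were tested here. Their median PGE2 effect was 1.14 in Etv1 shRNA, 1.68 in control shRNA and 1.47 in wild type cells (log2). The difference between the hairpins had a median of -0.50 and was below 0 in 80.7% of them, against 0.01 and 47.8% over all genes tested. It was called below 0 in 185 of the 612 (30.2%) and above 0 in 6 (0.98%), against 5.58% and 6.03% of all genes.

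PGE2 lowered 601 genes at least 2-fold in wild type cells, and 529 of them were tested here. Their median PGE2 effect was -0.97 in Etv1 shRNA, -1.31 in control shRNA and -1.29 in wild type cells. The difference had a median of 0.33, was above 0 in 411 of the 529, and was called above 0 in 85 (16.1%) and below 0 in 8 (1.51%), and with the replicate block above 0 in 157 and below 0 in 13. Among the 10765 genes in neither class the median was 0.02, with 652 called above 0 (6.06%) and 494 below 0 (4.59%).

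The medians were similar across levels of expression. In genes of low, middle and high mean CPM (3 classes of equal size over all tested genes), the median difference of the raised class was -0.42, -0.56 and -0.53, and that of the lowered class was 0.38, 0.26 and 0.33. The share called was not similar and grew with level. In the same order, 44 of 302, 60 of 149 and 81 of 161 raised genes were called below 0. Of the lowered genes, 20 of 282, 27 of 146 and 38 of 101 were called above 0. Read the other way, 514 of the 691 genes with a called difference below 0 were significantly raised by PGE2 in wild type cells (74.4%) and 56 were lowered (8.1%). Of the 747 above 0, 492 were lowered in wild type cells (65.9%) and 82 were raised (11%). Over all genes tested, 30% were raised and 29.4% lowered in wild type cells. Across the 12382 genes the PGE2 effects of the hairpin groups had a Pearson r of 0.856 and standard deviations of 0.731 in Etv1 shRNA and 0.958 in control shRNA cells, as a description across genes that are not independent.

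**Figure D2:**
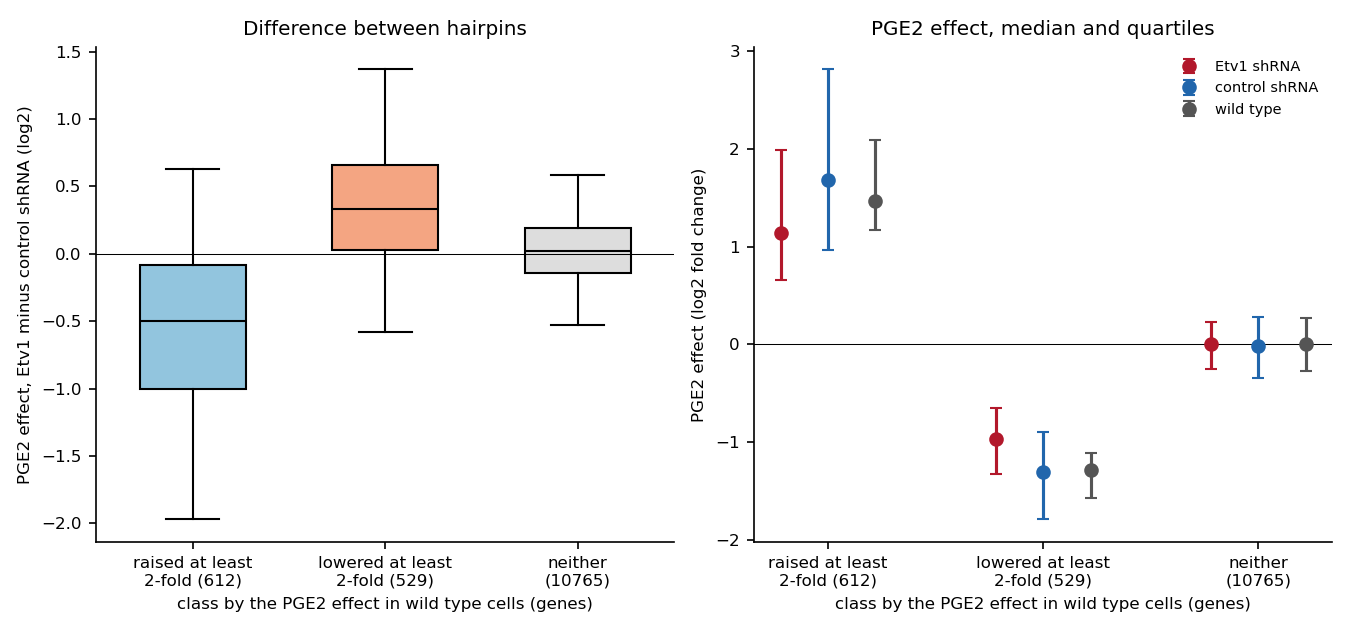
Genes grouped by the PGE2 effect in wild type cells (612 raised and 529 lowered at least 2-fold, 10765 in neither class). The left panel gives the difference in PGE2 effect, Etv1 minus control shRNA, with boxes for the quartiles and whiskers for the 5th and 95th percentiles; the right panel gives the median PGE2 effect with quartile bars in Etv1 shRNA, control shRNA and wild type cells, which is nearer 0 in Etv1 shRNA cells in both changed classes.

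The cAMP target genes had the largest share of members with a called difference among the lists examined. Of 28 tested members, 15 were called below 0 and 2 above 0 (5.58% and 6.03% of all genes). Among genes raised at least 2-fold by PGE2 in wild type cells, 30.2% were called below 0 and 0.98% above 0. The median difference of the list was -0.88 against 0.01 over all genes. Most list members rose under both hairpins: 20 of the 28 were raised in Etv1 shRNA cells and 24 in control shRNA cells. The 15 were Crem, Nr4a1, Nr4a2, Nr4a3, Fos, Fosb, Junb, Per1, Sik1, Nfil3, Odc1, Pde3b, Pde4b, Pde4d and Thbs1, and the 2 above 0 were Atf3 and Rgs1. Rgs1, a regulator of G protein signalling, rose by 1.77 in Etv1 shRNA and 1.07 in control shRNA cells, while its rise in mean CPM was 191 in Etv1 shRNA and 254 in control shRNA cells.

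Crem encodes the cAMP response element modulator, whose short form ICER represses CRE-driven genes. It had 188, 172 and 204 CPM in Etv1 shRNA cells with PGE2 and 8.80, 9.76 and 9.68 CPM in those without it. The control shRNA libraries held 402, 448 and 403 CPM with PGE2 and 12.4, 10.7 and 10.8 CPM without it. The PGE2 libraries of the Etv1 shRNA group were all below those of the control group, and by a smaller margin also without PGE2. PGE2 raised Crem by 4.32 ± 0.11 in Etv1 shRNA cells and 5.19 ± 0.11 in control shRNA cells, a difference of -0.88 ± 0.15 (edgeR adjusted p = 0.000698).

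Nr4a2 and Nr4a3 encode orphan nuclear receptors induced within the early CREB response. Nr4a2 had 68.4, 48.9 and 62.2 CPM in Etv1 shRNA cells with PGE2 and 8.18, 6.44 and 8.93 CPM in those without it. Under the control hairpin, levels were 80.98, 108 and 96.7 CPM with PGE2 and 3.002, 2.48 and 3.27 CPM without it. Nr4a3 had 6.56, 4.37 and 5.54 CPM in Etv1 shRNA cells with PGE2 and 2.48, 1.20 and 1.40 CPM in those without it. Levels under the control hairpin were 15.4, 17.4 and 18.4 CPM with PGE2 and 0.952, 0.904 and 0.676 CPM without it. For both genes the Etv1 shRNA libraries were below the control shRNA libraries with PGE2 and above them without it. The PGE2 effect on Nr4a2 was 2.93 ± 0.23 in Etv1 shRNA cells and 5.02 ± 0.27 in control shRNA cells, a difference of -2.09 ± 0.39 (edgeR adjusted p = 0.003), and the difference for Nr4a3 was -2.58 ± 0.36 (edgeR adjusted p = 0.000119). Nr4a1, from the same receptor family, rose by 2.25 in control shRNA cells, while its change of 0.50 in Etv1 shRNA cells did not pass the test, and the difference was -1.75 ± 0.32 (edgeR adjusted p = 0.003).

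Promoters are shown for these receptors and for Dusp5, described below, as 3 of the 15 genes with the lowest called difference among genes of at least 5 CPM. They were chosen after their sequences were read, because each holds the CRE core TGACG, and do not stand for the 15. Of these 15 genes 11 had a promoter in the table, of which 5 held the core and 6 did not. Each line gives the 250 bases before the RefSeq start on GRCm38.p6, 5′ to 3′ on the gene's strand, with capitals marking TGACG or its reverse complement CGTCA. Windows are chr2:57124004-57124253 on the minus strand for Nr4a2, chr4:48045055-48045304 on the plus strand for Nr4a3 and chr19:53528895-53529144 on the plus strand for Dusp5.
Nr4a2: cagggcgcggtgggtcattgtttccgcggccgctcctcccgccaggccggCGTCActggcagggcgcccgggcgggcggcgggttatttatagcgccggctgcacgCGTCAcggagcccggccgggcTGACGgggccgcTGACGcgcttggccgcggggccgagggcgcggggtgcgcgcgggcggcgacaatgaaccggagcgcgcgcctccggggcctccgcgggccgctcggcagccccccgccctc
Nr4a3: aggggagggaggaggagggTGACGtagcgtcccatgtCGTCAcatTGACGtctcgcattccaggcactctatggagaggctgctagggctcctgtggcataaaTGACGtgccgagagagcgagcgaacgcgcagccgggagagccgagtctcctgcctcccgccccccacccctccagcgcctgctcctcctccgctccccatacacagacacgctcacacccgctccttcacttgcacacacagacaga
Dusp5: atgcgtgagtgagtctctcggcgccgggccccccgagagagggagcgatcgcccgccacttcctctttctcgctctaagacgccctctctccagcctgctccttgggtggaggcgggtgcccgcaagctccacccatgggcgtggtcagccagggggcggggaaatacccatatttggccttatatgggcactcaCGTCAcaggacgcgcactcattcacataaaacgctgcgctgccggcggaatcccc
Nr4a2 and Nr4a3 each held 4 such cores and Dusp5 held 1, and none of the 3 windows held the full CRE TGACGTCA, the ETS core CCGGAAG or the AP-1 site TGANTCA on either strand. The core occurs in 17.9% of the 27025 promoters of the table, the full CRE in 1.62%, the ETS core in 7.05% and the AP-1 site in 6.87%. Among the 9475 promoters matched to genes tested here the shares were 28% for the core, 2.84% for the full CRE, 14.7% for the ETS core and 4.3% for the AP-1 site. A match is a description of letters and not a binding site. A comparison of motif shares between called and other genes was void. Only those 9475 of the 12382 tested genes matched a promoter in the table by symbol, under the 80% needed.

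Sik1, the salt-inducible kinase that keeps CRTC coactivators of CREB out of the nucleus, had 32.7, 34.9 and 31.7 CPM in Etv1 shRNA cells with PGE2 and 14.1, 16.4 and 16.9 CPM in those without it. For control shRNA cells the values were 74.4, 86.8 and 75.4 CPM with PGE2 and 13.4, 18.1 and 17.02 CPM without it. This gave a difference of -1.24 ± 0.15 (edgeR adjusted p = 3.35e-05). Odc1, which makes putrescine in the first step of polyamine synthesis, had 985, 1076 and 956 CPM in Etv1 shRNA cells with PGE2 and 179.7, 177 and 191 CPM in those without it. Control hairpin libraries gave 1809, 1666 and 1737 CPM with PGE2 and 169, 141 and 169.7 CPM without it. The PGE2 effects differed by -0.98 ± 0.13 (edgeR adjusted p = 6.55e-05). Sik1 overlapped between the hairpins without PGE2 and Odc1 was slightly higher in Etv1 shRNA cells, while with PGE2 both were lower in every Etv1 shRNA library. The cAMP-degrading phosphodiesterases Pde4b, Pde4d and Pde3b rose under both hairpins, with differences of -0.79, -1.28 and -1.09. The AP-1 genes rose under both hairpins too, with PGE2 effects of 0.49 in Etv1 shRNA and 2.04 in control shRNA cells for Fos and 2.56 in Etv1 shRNA and 4.44 in control shRNA cells for Fosb. The call of Fosb was lost with the replicate number as a block (edgeR adjusted p = 0.0862).

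Thbs1 encodes the matricellular protein thrombospondin 1. It had 2183, 2402 and 2242 CPM in Etv1 shRNA cells with PGE2 and 6.42, 6.26 and 7.26 CPM in those without it. In the control group it had 7249, 12897 and 8217 CPM with PGE2 and 3.73, 10.3 and 3.83 CPM without it. The PGE2 libraries did not overlap between the hairpins, and control shRNA replicate 2 was highest in both conditions. The PGE2 effect was 8.42 ± 0.45 in Etv1 shRNA cells and 10.69 ± 0.49 in control shRNA cells, a difference of -2.27 ± 0.61 (edgeR adjusted p = 0.0303). The call was lost without any 1 of the Etv1 shRNA libraries with IL-4 alone, without replicate 1 or 3 of the Etv1 shRNA group with PGE2 and without replicate 1 or 3 of the control shRNA group with IL-4 alone, at edgeR adjusted p of 0.0577 to 0.0861.

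Atf3, a stress-induced bZIP factor, was called above 0 within the list, and PGE2 lowered it. It had 94.05, 69.5 and 79.7 CPM in Etv1 shRNA cells with PGE2 and 292, 266 and 309.7 CPM in those without it. Cells with control shRNA had 94.03, 82.7 and 92.7 CPM with PGE2 and 640.4, 751 and 686 CPM without it. The levels with PGE2 overlapped between the hairpins, whereas without PGE2 all control shRNA libraries were higher. The PGE2 effect was -1.83 ± 0.10 in Etv1 shRNA cells and -2.94 ± 0.10 in control shRNA cells, a difference of 1.11 ± 0.14 (edgeR adjusted p = 5.77e-05).

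**Figure D3:**
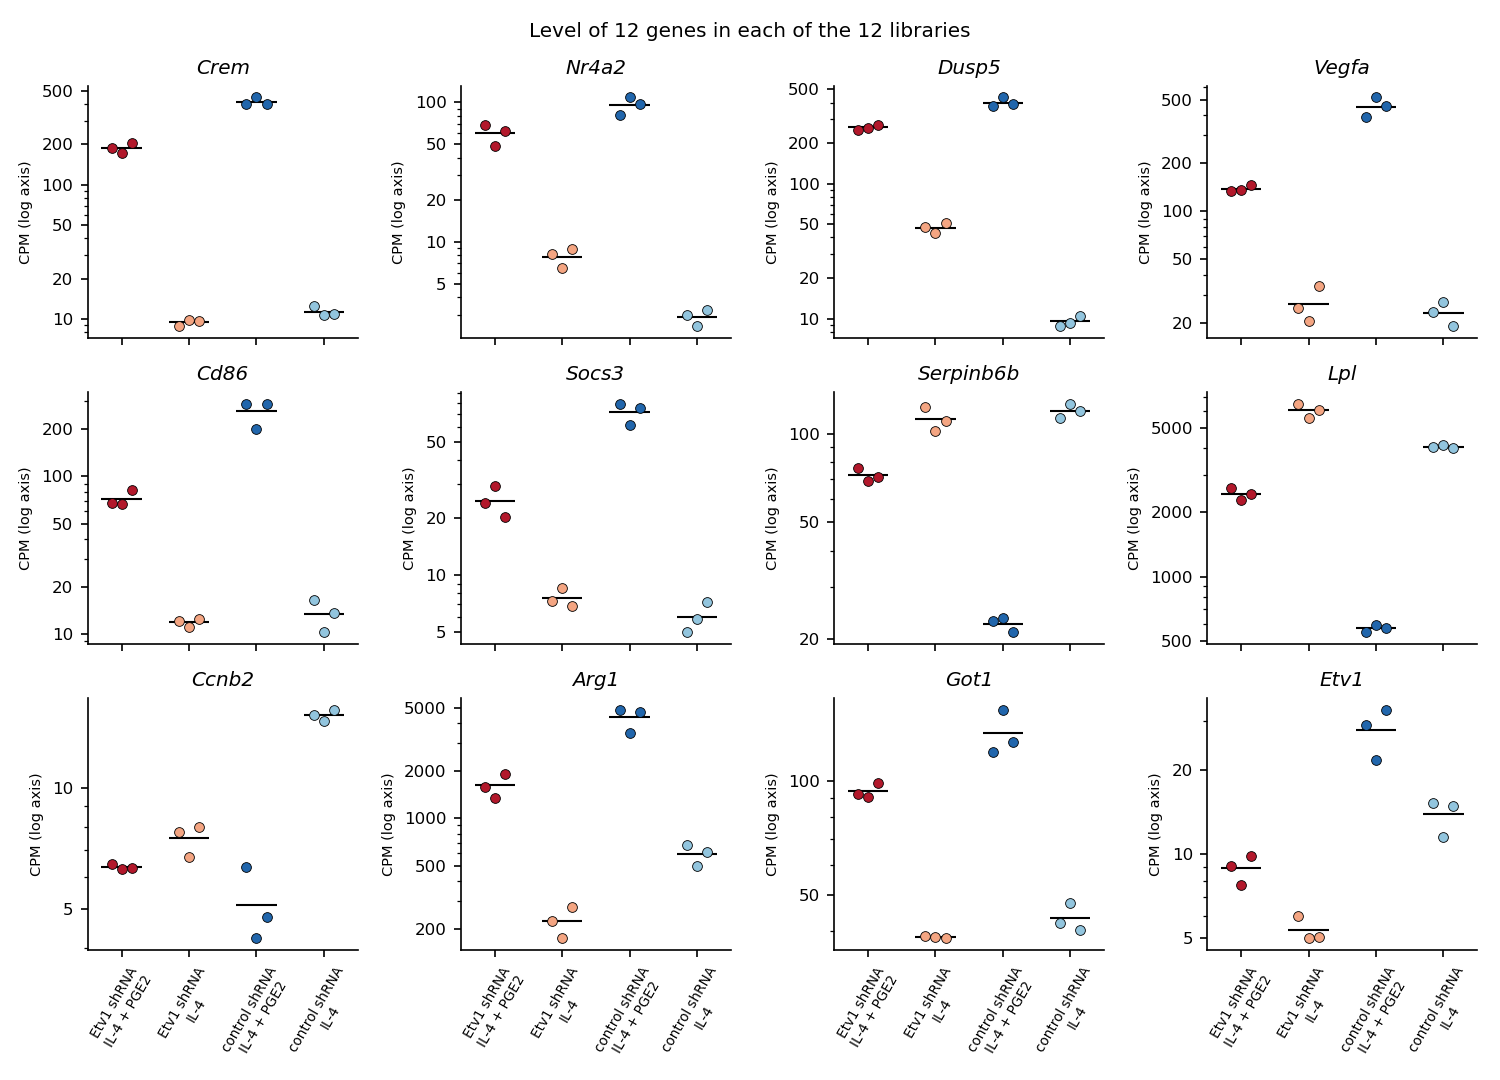
CPM on a log axis of 12 genes in each of the 12 libraries; points are libraries, bars are group means, and the groups run from Etv1 shRNA with IL-4 and PGE2 to control shRNA with IL-4 alone. Crem, Vegfa, Cd86 and Socs3 are lower in Etv1 shRNA than in control shRNA cells with PGE2 and close without it, Serpinb6b and Lpl are higher in Etv1 shRNA cells with PGE2, and Arg1 keeps nearly the same distance between hairpins in both conditions.

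Signalling components upstream of these targets had called differences in both directions. Of 25 tested genes for CREB, CRTC coactivators, adenylyl cyclases, PKA subunits and further phosphodiesterases, 4 were called above 0 and 3 below 0 (6.03% and 5.58% of all genes), with a median difference near 0. Crtc3, a CREB coactivator, had 97.6, 98.3 and 107 CPM in Etv1 shRNA cells with PGE2 and 44.6, 46.9 and 44.6 CPM in those without it. Values in control shRNA cells were 126, 161 and 150.2 CPM with PGE2 and 38.5, 37.95 and 39.6 CPM without it. Its difference in PGE2 effect was -0.76 ± 0.10 (edgeR adjusted p = 8.29e-05). Akap13, an anchoring protein of PKA, had 199, 194 and 202 CPM in Etv1 shRNA cells with PGE2 and 217, 203 and 203 CPM in those without it. Control shRNA cells had 207, 199 and 210.0 CPM with PGE2 and 401, 397 and 409.9 CPM without it. PGE2 lowered Akap13 in control shRNA cells by 0.97 on the log2 scale and its change of -0.06 in Etv1 shRNA cells did not pass the test, and only the control group without PGE2 stood apart, above the 9 other libraries. The adenylyl cyclase gene Adcy9 was likewise called as lowered in control shRNA cells and not called in Etv1 shRNA cells, with PGE2 effects of 0.13 in Etv1 shRNA and -0.68 in control shRNA cells and a difference of 0.81 ± 0.12 (edgeR adjusted p = 0.00015). In the prostaglandin pathway 2 of 15 genes were called, Tbxas1 and Pla2g4a, both above 0, near the 11.6% of all genes called. Below 0 were 3 genes at an unadjusted p under 0.05, 0 by DESeq2 and 1 with the replicate block. Ptgs2, the inducible cyclooxygenase, had 34.5, 47.1 and 29.1 CPM in Etv1 shRNA cells with PGE2 and 21.9, 14.3 and 16.7 CPM in those without it. In control shRNA cells the levels were 72.3, 193 and 98.6 CPM with PGE2 and 29.4, 20.2 and 28.6 CPM without it. Its difference of -1.13 ± 0.49 (edgeR adjusted p = 0.165) did not pass the test, and control shRNA replicate 2 was well above its group with PGE2.

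Genes that feed back on the ERK pathway and other early growth genes also had mostly negative differences. Of 24 tested, 10 were called below 0 and 1 above 0 (5.58% and 6.03% of all genes), with a median difference of -0.38. Dusp5, the nuclear phosphatase of ERK, had the smallest adjusted p of the named genes. It had 251, 260.1 and 274 CPM in Etv1 shRNA cells with PGE2 and 47.9, 43.4 and 50.99 CPM in those without it. The control shRNA libraries held 375, 437 and 388 CPM with PGE2 and 8.79, 9.37 and 10.5 CPM without it. Without PGE2 every Etv1 shRNA library was above every control shRNA library, and with PGE2 every one was below. PGE2 raised Dusp5 by 2.47 ± 0.08 in Etv1 shRNA cells and 5.40 ± 0.09 in control shRNA cells, a difference of -2.93 ± 0.12 (edgeR adjusted p = 8.02e-12), and the rise in mean CPM was 215 in Etv1 shRNA and 390.1 in control shRNA cells.

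Ier3, an early gene that restrains ERK dephosphorylation and cell death, had 127, 142 and 117 CPM in Etv1 shRNA cells with PGE2 and 51.02, 53.95 and 42.7 CPM in those without it. Under the control hairpin, levels were 269, 298 and 322 CPM with PGE2 and 48.3, 41.1 and 53.2 CPM without it. The tested difference was -1.25 ± 0.14 (edgeR adjusted p = 2.24e-05). In Fosl1, an AP-1 subunit, and Egr1, a zinc-finger early factor, the directions were opposite: the PGE2 effect was -0.40 ± 0.14 in Etv1 shRNA cells and 0.87 ± 0.17 in control shRNA cells for Fosl1 and -0.80 ± 0.26 in Etv1 shRNA cells and 0.94 ± 0.23 in control shRNA cells for Egr1, and all 4 effects passed the test. The differences were -1.26 ± 0.21 (edgeR adjusted p = 0.000636) for Fosl1 and -1.74 ± 0.35 (edgeR adjusted p = 0.0039) for Egr1. The ERK inhibitors Spred2 and Spred3 rose under both hairpins, with differences of -0.73 and -0.74. Dusp7 was the 1 member called above 0, at 0.54. Among 18 tested ETS factors, Elk1 and Elk4 were called below 0 and Erf above 0, at -0.36, -0.44 and 0.32. The shares over all genes were 5.58% below 0 and 6.03% above 0. The Elk4 call was lost without any 1 of 8 libraries, namely replicate 2 or 3 of the Etv1 shRNA group with IL-4 alone, replicate 1 or 3 of that group with PGE2, replicate 1 or 3 of the control shRNA group with IL-4 alone and replicate 2 or 3 of that group with PGE2, at edgeR adjusted p of 0.0506 to 0.0926.

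**Figure D4:**
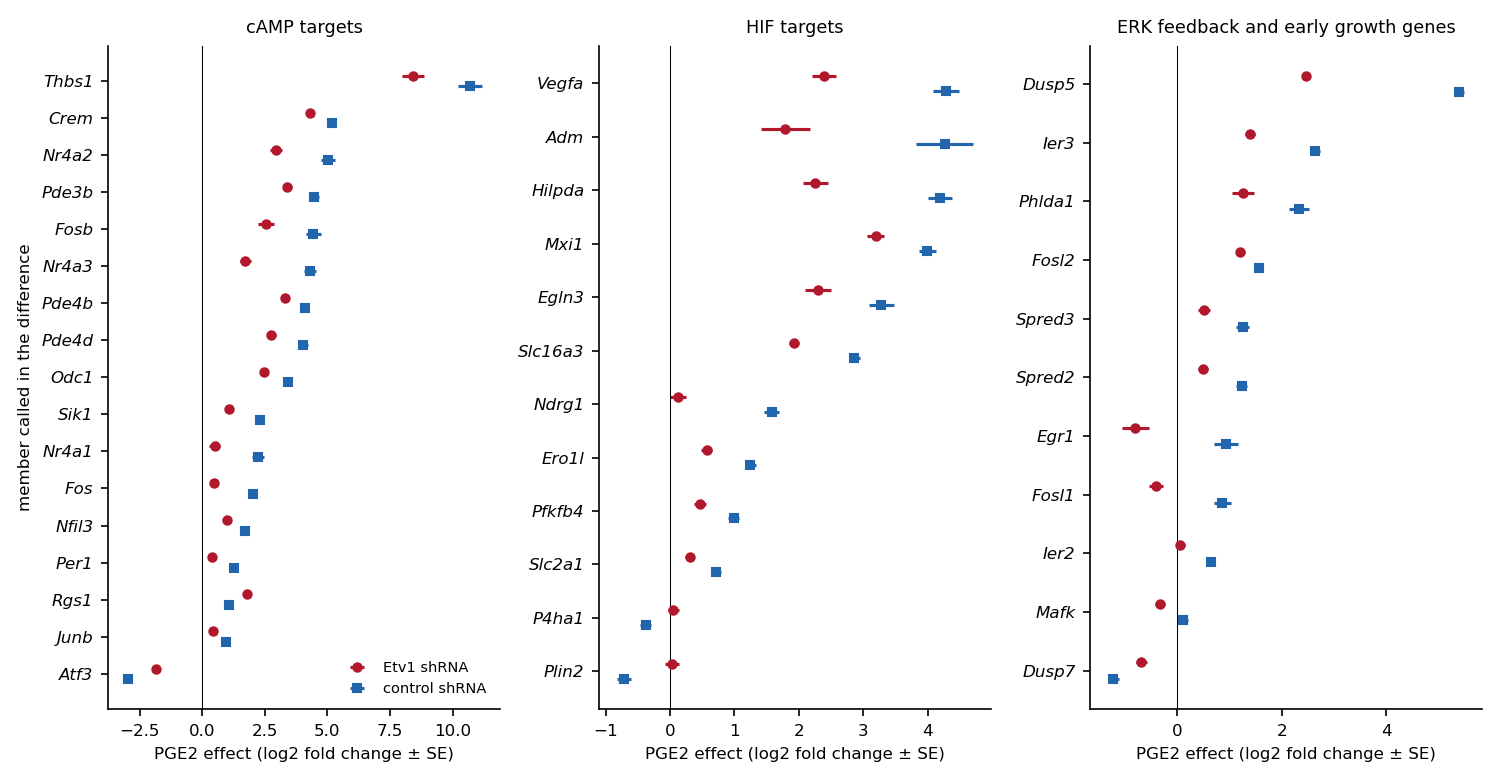
PGE2 effect as log2 fold change with its SE in Etv1 shRNA cells (red circles) and control shRNA cells (blue squares) for the members of 3 lists with a called difference: 17 cAMP targets, 12 HIF targets and 11 ERK feedback and early growth genes. In most members that rose, the red circle lies to the left of the blue square.

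Several targets of hypoxia-inducible factor (HIF) rose less under the Etv1 hairpin. Of 27 tested, 10 were called below 0 (Vegfa, Adm, Hilpda, Mxi1, Egln3, Slc16a3, Ndrg1, Ero1l, Pfkfb4 and Slc2a1) and 2 above 0 (Plin2 and P4ha1). Over all genes 5.58% were called below 0 and 6.03% above 0. The median difference of the list was -0.35. The Adm call was lost without replicate 3 of the Etv1 shRNA group with IL-4 alone (edgeR adjusted p = 0.0922). Vegfa, the angiogenic growth factor, had 135, 136 and 146 CPM in Etv1 shRNA cells with PGE2 and 24.7, 20.4 and 34.1 CPM in those without it. Levels under the control hairpin were 388, 518 and 455 CPM with PGE2 and 23.4, 27.1 and 19.05 CPM without it. Hilpda, which inhibits lipolysis at lipid droplets, had 46.1, 50.3 and 46.02 CPM in Etv1 shRNA cells with PGE2 and 8.90, 10.5 and 10.3 CPM in those without it. For control shRNA cells the values were 175, 287 and 192 CPM with PGE2 and 10.5, 15.2 and 10.4 CPM without it. In both genes the groups without PGE2 overlapped and the groups with PGE2 were fully separated. The PGE2 effect on Vegfa was 2.39 ± 0.19 in Etv1 shRNA cells and 4.29 ± 0.20 in control shRNA cells, a difference of -1.90 ± 0.27 (edgeR adjusted p = 0.000477), and the difference for Hilpda was -1.94 ± 0.28 (edgeR adjusted p = 0.000444).

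Slc16a3, the lactate exporter MCT4, had 239.7, 233 and 284 CPM in Etv1 shRNA cells with PGE2 and 64.99, 65.00 and 68.7 CPM in those without it. Control hairpin libraries gave 607, 569 and 653 CPM with PGE2 and 79.2, 87.6 and 84.9 CPM without it. Between the hairpins its PGE2 effect differed by -0.93 ± 0.11 (edgeR adjusted p = 2.29e-05). Ndrg1, a stress-responsive gene, had 23.1, 24.7 and 23.96 CPM in Etv1 shRNA cells with PGE2 and 21.8, 23.5 and 20.7 CPM in those without it. In the control group it had 55.9, 79.5 and 57.3 CPM with PGE2 and 19.6, 24.3 and 20.5 CPM without it. PGE2 raised Ndrg1 by 1.58 in control shRNA cells, its change of 0.12 in Etv1 shRNA cells did not pass the test, and the difference was -1.46 ± 0.18 (edgeR adjusted p = 2.71e-05). Plin2, a lipid droplet coat protein, was lowered by PGE2 in control shRNA cells and not called in Etv1 shRNA cells (0.03 in Etv1 shRNA and -0.72 in control shRNA cells), a difference of 0.75.

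Glycolysis genes overlapped with these in Slc16a3, Slc2a1 and Pfkfb4. Of 24 tested, 7 were called below 0 and 3 above 0 (5.58% and 6.03% of all genes), with a median difference of -0.18. Ldha, Hk1 and Pfkl, which encode lactate dehydrogenase A, hexokinase 1 and liver phosphofructokinase, had differences of -0.39, -0.49 and -0.50. The platelet phosphofructokinase Pfkp was called above 0, at 0.71 ± 0.08 (edgeR adjusted p = 1.12e-05). The monocarboxylate transporter Slc16a1 fell in Etv1 shRNA cells by 1.11 on the log2 scale under PGE2, its change in control shRNA cells of -0.02 did not pass the test, and the difference was -1.08 ± 0.15 (edgeR adjusted p = 0.000115).

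Costimulatory ligands and several inflammatory genes had called differences below 0. Cd86, a ligand of CD28 and CTLA-4 on T cells, had 67.4, 67.05 and 82.3 CPM in Etv1 shRNA cells with PGE2 and 12.2, 11.05 and 12.6 CPM in those without it. Cells with control shRNA had 286, 200.1 and 289 CPM with PGE2 and 16.4, 10.3 and 13.6 CPM without it. Its PGE2 effect was 2.60 ± 0.17 in Etv1 shRNA cells and 4.24 ± 0.16 in control shRNA cells, a difference of -1.64 ± 0.24 (edgeR adjusted p = 0.000405). Cd80, the second such ligand, had 88.8, 96.4 and 78.97 CPM in Etv1 shRNA cells with PGE2 and 25.4, 26.8 and 23.1 CPM in those without it. Values in control shRNA cells were 247, 198 and 224 CPM with PGE2 and 33.7, 31.2 and 31.1 CPM without it. The difference was -0.98 ± 0.13 (edgeR adjusted p = 5.96e-05). With PGE2 the Etv1 shRNA libraries reached less than every control shRNA library for both ligands. Cd83, an activation marker, had a difference of -1.37 ± 0.24 (edgeR adjusted p = 0.0019). These 3 were the members called below 0 among 22 tested genes of antigen presentation and costimulation (5.58% of all genes). H2-DMb1 was called above 0 (6.03% of all genes), 3 genes were above 0 with the replicate block, and the median was -0.01.

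Of 22 tested inflammatory cytokines and mediators, 7 were called below 0 and none above 0 by edgeR (1 at an unadjusted p under 0.05, 0 by DESeq2). Their median was -0.45, and the shares over all genes were 5.58% below 0 and 6.03% above 0. With the replicate block 13 were below 0 and 2 above 0. The 7 were Socs3, Il1rn, Tgfb1, Osm, Csf1, Inhba and Nfkb2. Socs3, an inhibitor of cytokine receptor signalling, had 23.8, 29.2 and 20.1 CPM in Etv1 shRNA cells with PGE2 and 7.24, 8.56 and 6.88 CPM in those without it. Control shRNA cells had 79.6, 61.1 and 75.6 CPM with PGE2 and 4.98, 5.87 and 7.21 CPM without it. PGE2 effects were 1.68 ± 0.17 in Etv1 shRNA cells and 3.61 ± 0.17 in control shRNA cells, a difference of -1.93 ± 0.25 (edgeR adjusted p = 5.96e-05). Il1rn, the IL-1 receptor antagonist, had 23.6, 29.7 and 20.8 CPM in Etv1 shRNA cells with PGE2 and 28.5, 34.2 and 25.5 CPM in those without it. In control shRNA cells the levels were 50.9, 42.2 and 53.7 CPM with PGE2 and 18.7, 25.4 and 20.4 CPM without it. PGE2 raised Il1rn by 1.21 in control shRNA cells and its change of -0.26 in Etv1 shRNA cells did not pass the test. This gave a difference of -1.47 ± 0.20 (edgeR adjusted p = 0.000154). Tgfb1, the immunoregulatory growth factor, fell in Etv1 shRNA cells and rose in control shRNA cells, at -0.22 ± 0.07 in Etv1 shRNA cells and 0.28 ± 0.07 in control shRNA cells, both called, with a difference of -0.51 ± 0.10 (edgeR adjusted p = 0.00151). None of 38 tested interferon response genes was called by edgeR or DESeq2, and 1 was below 0 at an unadjusted p under 0.05, as was 1 with the replicate block.

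Among matrix, protease and repair genes 8 of 29 tested were called below 0 and 3 above 0 (5.58% and 6.03% of all genes). Their median was -0.22. The 8 were Thbs1, Vegfa, Osm, Tgfb1, Plaur, Timp1, Mmp19 and Vcan, and the call of Thbs1 was lost without single libraries as given above. Plaur, the urokinase receptor, had 251, 341 and 253 CPM in Etv1 shRNA cells with PGE2 and 112, 111 and 119 CPM in those without it. The control shRNA libraries held 352, 425 and 368 CPM with PGE2 and 75.6, 82.9 and 80.8 CPM without it. The PGE2 effects differed by -0.95 ± 0.13 (edgeR adjusted p = 0.000166). Timp1, an inhibitor of metalloproteinases, had 5.72, 5.59 and 6.49 CPM in Etv1 shRNA cells with PGE2 and 1.45, 1.29 and 0.744 CPM in those without it. Under the control hairpin, levels were 23.1, 12.2 and 29.4 CPM with PGE2 and 0.439, 0.791 and 0.676 CPM without it. Its difference in PGE2 effect was -2.81 ± 0.60 (edgeR adjusted p = 0.00474). The 3 above 0, Igf1, Pdgfb and Adam17, were lowered by PGE2 under both hairpins, with differences of 0.70, 0.76 and 0.43.

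The marker genes Arg1, Retnla and Chil3 of alternative activation had no called difference. Of 30 tested on the list, 4 were called below 0 and none above 0 by edgeR (1 at an unadjusted p under 0.05, 1 by DESeq2, 1 with the replicate block), against 5.58% below 0 over all genes, with a median of -0.18. Arg1, which hydrolyses arginine to ornithine, had 1584, 1341 and 1917 CPM in Etv1 shRNA cells with PGE2 and 223, 173 and 276 CPM in those without it. Levels under the control hairpin were 4882, 3467 and 4732 CPM with PGE2 and 681, 502 and 607 CPM without it. The Etv1 shRNA libraries were below the control shRNA libraries in both conditions, and the PGE2 effect was 2.85 ± 0.21 in Etv1 shRNA cells and 2.87 ± 0.21 in control shRNA cells, with a difference of -0.02 ± 0.28 (edgeR adjusted p = 0.983) that did not pass the test. Retnla, a secreted resistin-like protein, had 25.7, 14.9 and 31.1 CPM in Etv1 shRNA cells with PGE2 and 81.2, 48.3 and 95.6 CPM in those without it. For control shRNA cells the values were 1.22, 1.29 and 1.94 CPM with PGE2 and 5.64, 3.61 and 6.31 CPM without it. Its levels were higher under the Etv1 hairpin in both conditions. PGE2 lowered Retnla under both hairpins, at -1.64 ± 0.28 in Etv1 shRNA cells and -1.66 ± 0.50 in control shRNA cells. Neither its difference of 0.02 ± 0.46 (edgeR adjusted p = 0.991) nor that of Chil3, -0.29 ± 0.23 (edgeR adjusted p = 0.472), passed the test.

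The 4 called genes of the list were Clec7a, Klf4, Ccl24 and Irf4. Clec7a, the beta-glucan receptor dectin-1, had 89.5, 102 and 119.8 CPM in Etv1 shRNA cells with PGE2 and 107, 93.2 and 133 CPM in those without it. Control hairpin libraries gave 824, 760.3 and 794 CPM with PGE2 and 383, 449 and 361 CPM without it. PGE2 raised it by 0.99 in control shRNA cells, its change of -0.10 in Etv1 shRNA cells did not pass the test, and the difference was -1.09 ± 0.21 (edgeR adjusted p = 0.00346). Klf4, a zinc-finger factor induced by IL-4, had 73.5, 64.9 and 70.6 CPM in Etv1 shRNA cells with PGE2 and 96.6, 88.3 and 106 CPM in those without it. In the control group it had 135, 144 and 164 CPM with PGE2 and 126, 101 and 122 CPM without it. It fell in Etv1 shRNA and rose in control shRNA cells, at -0.48 ± 0.10 in Etv1 shRNA cells and 0.35 ± 0.09 in control shRNA cells, both called, with a difference of -0.82 ± 0.13 (edgeR adjusted p = 0.000539). The eosinophil attractant Ccl24 had 1.01, 2.03 and 1.38 CPM in Etv1 shRNA cells with PGE2 and 0.828, 0.829 and 0.744 CPM in those without it. Cells with control shRNA had 10.00, 6.69 and 6.07 CPM with PGE2 and 0.220, 0.339 and 1.01 CPM without it. The tested difference was -3.06 ± 0.64 (edgeR adjusted p = 0.00324). Its size rests on few counts, at 3, 3 and 9 in the control shRNA libraries without PGE2. Irf4, an IL-4-induced transcription factor, was lowered by PGE2 under both hairpins, at -3.46 in Etv1 shRNA and -2.44 in control shRNA cells, a difference of -1.02. Its mean CPM fell by 33.6 in Etv1 shRNA cells and fell by 53.6 in control shRNA cells, which is the opposite sign.

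Nuclear genes of the respiratory chain had few called differences, 1 of 66, beside the 11.6% of all genes. Malate-aspartate shuttle genes had 1 of 7 and TCA cycle genes 2 of 25. Got1, which transaminates aspartate in the cytosolic arm of that shuttle, had 92.4, 90.8 and 98.4 CPM in Etv1 shRNA cells with PGE2 and 39.01, 38.7 and 38.3 CPM in those without it. Values in control shRNA cells were 119, 154 and 127 CPM with PGE2 and 42.2, 47.6 and 40.5 CPM without it. PGE2 raised Got1 by 1.28 ± 0.09 in Etv1 shRNA cells and 1.62 ± 0.09 in control shRNA cells. The difference of -0.34 ± 0.12 (edgeR adjusted p = 0.0791) did not pass the test, whereas with the replicate number as a block it was called, at an edgeR adjusted p of 0.0286. With 1 library left out in turn, the edgeR adjusted p of Got1 ran from 0.0227 to 0.174, so some of these fits also called it. In the same shuttle Slc25a13, the mitochondrial aspartate-glutamate carrier, was the 1 called member of 7. It had 52.9, 47.8 and 53.98 CPM in Etv1 shRNA cells with PGE2 and 93.9, 90.3 and 90.1 CPM in those without it. Control shRNA cells had 34.9, 21.2 and 29.6 CPM with PGE2 and 114, 95.4 and 116 CPM without it. Between the hairpins its PGE2 effect differed by 1.10 ± 0.15 (edgeR adjusted p = 0.00015). Of 25 TCA cycle genes 2 were called above 0, Idh2 at 0.78 ± 0.11 (edgeR adjusted p = 0.000119) and Sdhc at 0.25, and of 66 nuclear genes of oxidative phosphorylation 1, again Sdhc. With the replicate block 2 shuttle, 4 TCA cycle and 3 oxidative phosphorylation genes were above 0 and 1 shuttle gene, Got1, below 0. That block called 1376 of all 12382 genes above 0 and 1187 below 0. Of 11 mtDNA-encoded genes none was called by edgeR, at an unadjusted p under 0.05 or by DESeq2. Sdhc lost its call without any 1 of 8 libraries, replicates 2 and 3 of each of the 4 groups, at edgeR adjusted p of 0.0573 to 0.121.

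Lipid genes split by direction, beside 5.58% of all genes called below 0 and 6.03% above 0. Of 23 cholesterol synthesis genes 6 were called below 0, among them Stard4, Srebf2, Sqle and Msmo1, and 1, Dhcr7, above 0, while the median was 0.06. Stard4, a sterol transfer protein, had a difference of -0.83 ± 0.14 (edgeR adjusted p = 0.000778), and Srebf2, the transcription factor that drives cholesterol synthesis genes, one of -0.41 ± 0.08 (edgeR adjusted p = 0.00125). Of 25 fatty acid oxidation genes 7 were called above 0 and 2 below 0, with a median of 0.19. Among the 7, Cpt1a, the entry enzyme of mitochondrial fatty acid oxidation, and Hadhb, a subunit of the mitochondrial trifunctional protein, were lowered by PGE2 in control shRNA cells and not called in Etv1 shRNA cells. The PGE2 effect was -0.02 in Etv1 shRNA and -0.51 in control shRNA cells for Cpt1a and 0.06 in Etv1 shRNA and -0.57 in control shRNA cells for Hadhb.

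Lpl, the secreted lipoprotein lipase, shared the smallest adjusted p of the named genes above 0 with Serpinb6b. It had 2619.7, 2294 and 2448 CPM in Etv1 shRNA cells with PGE2 and 6505, 5543 and 6061 CPM in those without it. In control shRNA cells the levels were 546, 594 and 574 CPM with PGE2 and 4063, 4137 and 4032 CPM without it. Every Etv1 shRNA library was above every control shRNA library of the same condition, and the separation was wider with PGE2. The PGE2 effect was -1.30 ± 0.07 in Etv1 shRNA cells and -2.84 ± 0.07 in control shRNA cells, a difference of 1.54 ± 0.10 (edgeR adjusted p = 7.22e-09). The sign was the opposite in mean CPM, which fell by 3583 in Etv1 shRNA cells and fell by 3506 in control shRNA cells. Lipa, the lysosomal acid lipase, had a difference of 0.58 ± 0.10 (edgeR adjusted p = 0.000636). It was 1 of 5 lysosomal genes called above 0 among 31 tested (6.03% of all genes). Npc2 was the 1 called below 0 (5.58% of all genes). With the replicate block the list held 11 above 0 and 2 below 0.

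Other genes lowered by PGE2 also fell less under the Etv1 hairpin. Serpinb6b, an intracellular serine protease inhibitor, had 76.5, 69.2 and 71.02 CPM in Etv1 shRNA cells with PGE2 and 123, 103 and 111 CPM in those without it. The control shRNA libraries held 23.1, 23.5 and 21.02 CPM with PGE2 and 113, 127 and 119.6 CPM without it. The levels without PGE2 overlapped, and with PGE2 the Etv1 shRNA libraries were all higher. The PGE2 effect was -0.63 ± 0.08 in Etv1 shRNA cells and -2.42 ± 0.08 in control shRNA cells, a difference of 1.79 ± 0.11 (edgeR adjusted p = 7.22e-09). Cd180, a Toll-like receptor relative that modulates lipopolysaccharide responses, had 55.4, 54.1 and 57.9 CPM in Etv1 shRNA cells with PGE2 and 121, 123 and 136 CPM in those without it. Under the control hairpin, levels were 34.1, 34.2 and 33.4 CPM with PGE2 and 196, 267 and 188 CPM without it. The difference was 1.49 ± 0.14 (edgeR adjusted p = 3.13e-06). Chn2, a Rac GTPase-activating protein, had 5.30, 3.66 and 4.24 CPM in Etv1 shRNA cells with PGE2 and 32.5, 25.7 and 31.9 CPM in those without it. Levels under the control hairpin were 1.71, 1.52 and 1.73 CPM with PGE2 and 32.1, 24.1 and 32.01 CPM without it. This gave a difference of 1.37 ± 0.30 (edgeR adjusted p = 0.00564). Cebpa, a myeloid transcription factor, had a difference of 0.94 ± 0.14 (edgeR adjusted p = 0.000248), with PGE2 effects of -1.75 in Etv1 shRNA and -2.69 in control shRNA cells.

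Nrp1, a co-receptor of semaphorins and VEGF, changed in opposite directions. It had 377, 351 and 349.6 CPM in Etv1 shRNA cells with PGE2 and 317, 291 and 309 CPM in those without it. For control shRNA cells the values were 226, 197 and 229.5 CPM with PGE2 and 401, 360.1 and 367 CPM without it. PGE2 effects were 0.23 ± 0.06 in Etv1 shRNA cells and -0.79 ± 0.06 in control shRNA cells, both called, a difference of 1.02 ± 0.09 (edgeR adjusted p = 5.5e-07). Ddit3, the stress factor CHOP, also rose in Etv1 shRNA cells and fell in control shRNA cells, at 0.38 ± 0.09 in Etv1 shRNA cells and -0.28 ± 0.08 in control shRNA cells, a difference of 0.66 ± 0.12 (edgeR adjusted p = 0.00105). Of 27 tested genes of the integrated stress response, 5 were called above 0 and 1 below 0 (6.03% and 5.58% of all genes). With the replicate block these counts were 10 and 4.

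Many cell cycle genes fell under PGE2, and 13 of them had a called difference above 0. Of 40 tested, these 13 were called above 0 (6.03% of all genes), and the median was 0.20. None was called below 0 by edgeR (1 at an unadjusted p under 0.05, 0 by DESeq2, 1 with the replicate block), against 5.58% of all genes. PGE2 lowered 17 of the 40 in Etv1 shRNA and 28 in control shRNA cells. Ccnb2 and Ccnb1 encode mitotic B-type cyclins. Ccnb2 had 6.47, 6.30 and 6.31 CPM in Etv1 shRNA cells with PGE2 and 7.76, 6.72 and 8.001 CPM in those without it. Control hairpin libraries gave 6.34, 4.22 and 4.78 CPM with PGE2 and 15.2, 14.7 and 15.7 CPM without it. Control shRNA cells without PGE2 were the high group for both genes, and for Ccnb1 the PGE2 effects were -0.11 ± 0.12 in Etv1 shRNA cells and -1.33 ± 0.11 in control shRNA cells. The difference was 1.36 ± 0.19 (edgeR adjusted p = 9.18e-05) for Ccnb2 and 1.22 ± 0.16 (edgeR adjusted p = 7.47e-05) for Ccnb1. Mcm6, a subunit of the replicative helicase, was lowered under both hairpins, at -1.27 ± 0.06 in Etv1 shRNA cells and -1.89 ± 0.06 in control shRNA cells, with a difference of 0.61 ± 0.09 (edgeR adjusted p = 0.000115). The other 10 were Birc5, Bub1, Ccna2, Cdc20, Kif11, Mki67, Nusap1, Plk1, Top2a and Ube2c, all mitotic or proliferation genes.

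**Figure D5:**
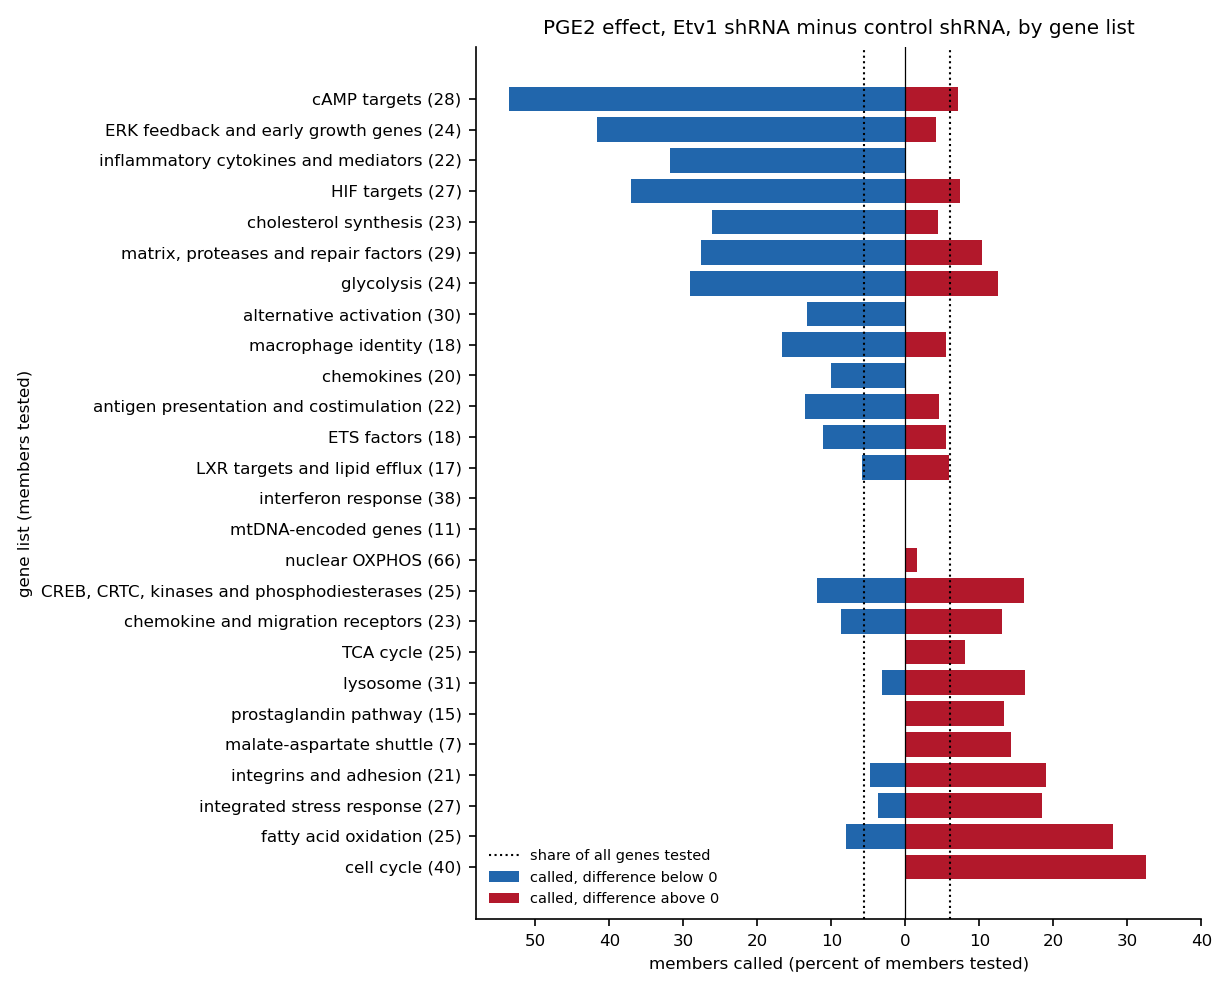
Share of tested members of 26 gene lists with a called difference in PGE2 effect, below 0 to the left in blue and above 0 to the right in red, in percent of members tested (number in parentheses). Dotted lines mark the shares over all genes, 5.58% and 6.03%; cAMP targets reach furthest left and cell cycle genes furthest right.

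Several receptors had large differences. Tlr5, the flagellin receptor, had 90.2, 90.1 and 90.7 CPM in Etv1 shRNA cells with PGE2 and 2.48, 2.39 and 2.88 CPM in those without it. In the control group it had 128, 126 and 131 CPM with PGE2 and 0.366, 0.339 and 0.338 CPM without it. It was nearly silent without PGE2 in control shRNA cells and higher in Etv1 shRNA cells, while with PGE2 the Etv1 shRNA libraries were lower. The PGE2 effects differed by -3.36 ± 0.33 (edgeR adjusted p = 2.78e-06). The size rests on few counts, as the control shRNA libraries without PGE2 held 5, 3 and 3 counts of Tlr5. Ltb4r1, the leukotriene B4 receptor, had 9.16, 11.2 and 11.1 CPM in Etv1 shRNA cells with PGE2 and 3.93, 3.59 and 3.44 CPM in those without it. Cells with control shRNA had 35.7, 21.3 and 37.2 CPM with PGE2 and 3.002, 2.60 and 3.61 CPM without it. Its difference in PGE2 effect was -1.86 ± 0.34 (edgeR adjusted p = 0.00138). Ptprf, a receptor tyrosine phosphatase, had 132, 165 and 151 CPM in Etv1 shRNA cells with PGE2 and 2.28, 1.66 and 2.14 CPM in those without it. Values in control shRNA cells were 70.00, 109 and 76.2 CPM with PGE2 and 0.0732, 0.226 and 0.225 CPM without it. The tested difference was -2.76 ± 0.71 (edgeR adjusted p = 0.0181). The control shRNA libraries without PGE2 held 1, 2 and 2 counts of Ptprf, so the size of its difference depends on the prior count. Ptprf was higher in Etv1 shRNA cells in both conditions, and the rise in mean CPM ran against the log2 difference, at 147 in Etv1 shRNA and 84.99 in control shRNA cells. Its call was lost without replicate 1 of the control shRNA group with IL-4 alone (edgeR adjusted p = 0.102).

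Some genes were near 0 without PGE2, where a fitted difference depends on the prior count, and their levels are given here. Tnfrsf9, the costimulatory receptor 4-1BB, had 5.13, 11.3 and 4.67 CPM in Etv1 shRNA cells with PGE2 and 1.66, 0.921 and 0.744 CPM in those without it. Control shRNA cells had 9.27, 11.02 and 13.7 CPM with PGE2 and 0.146, 0 and 0 CPM without it. Nrg1, an ErbB ligand, had 2.02, 2.34 and 1.21 CPM in Etv1 shRNA cells with PGE2 and 0.207, 0.368 and 0.093 CPM in those without it. In control shRNA cells the levels were 4.76, 9.50 and 6.68 CPM with PGE2 and 0.0732, 0 and 0 CPM without it. Both were called below 0 and held 2 counts and 1 count in all control shRNA libraries without PGE2. The Nrg1 call was lost without replicate 1 or 2 of the Etv1 shRNA group with IL-4 alone or replicate 2 or 3 of the control shRNA group with IL-4 alone, at edgeR adjusted p of 0.0593 to 0.158. Ackr3, a scavenger receptor for CXCL12, was at 0 counts without PGE2 in all 6 libraries and had 12.6, 12.6 and 13.1 CPM with PGE2 in Etv1 shRNA cells, against 17.6, 22.5 and 19.6 CPM with PGE2 in control shRNA cells. A floor of 3 counts in 1 library corresponds to 0.108 to 0.366 CPM.

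Of 18 tested macrophage identity genes, 3 were called below 0, Cd14 and Maf among them, and Cebpa was called above 0, against 5.58% below 0 and 6.03% above 0 over all genes, with a median of -0.05, and with the replicate block 4 were below 0 and 4 above 0. Maf, a macrophage transcription factor, had 541, 496 and 539 CPM in Etv1 shRNA cells with PGE2 and 239, 222 and 201 CPM in those without it. The control shRNA libraries held 401, 291 and 412 CPM with PGE2 and 97.2, 83.5 and 88.6 CPM without it. Between the hairpins its PGE2 effect differed by -0.78 ± 0.15 (edgeR adjusted p = 0.00236), although the rise in mean CPM was 305 in Etv1 shRNA and 278 in control shRNA cells. Cd14, the lipopolysaccharide co-receptor, had 367, 496 and 436 CPM in Etv1 shRNA cells with PGE2 and 52.99, 43.7 and 62.1 CPM in those without it. Under the control hairpin, levels were 1734, 3252 and 1952 CPM with PGE2 and 100.2, 117 and 104 CPM without it. The difference was -1.40 ± 0.36 (edgeR adjusted p = 0.0221). The Cd14 call was lost without replicate 3 of the Etv1 shRNA group with IL-4 alone, without replicate 1 of the Etv1 shRNA group with PGE2, and without replicate 1 or 3 of the control shRNA group with IL-4 alone, at edgeR adjusted p of 0.05 to 0.0605.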

How the data were processed

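The deposited files hold whole-number read counts per gene, 1 file a library, made with STAR and featureCounts on GRCm38, per the submitters' processing notes, which also name DESeq2 and deepTools. Versions and the strand setting were not given, so values of overlapping and antisense genes are uncertain. Symbols of GENCODE M21 matched 97.3% of the 43629 IDs, and unmatched IDs held 0.190% of counts.

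Group means over the 18 hairpin libraries (including 6 unstimulated ones) were fitted with edgeR 4.0.16 in R 4.3.3 (TMM, filterByExpr, robust quasi-likelihood F test, Benjamini-Hochberg adjustment, threshold 0.05), leaving 12382 genes. The 12 wild type libraries, 3 of them with 10 nM valinomycin, were fitted alone, with 12824 genes. Depth sets the precision: 3 counts in a library correspond to 0.108 to 0.366 CPM. All p-values for single genes are edgeR's. Each SE is the absolute log2 value divided by the square root of its F statistic, and was not fitted directly. The SE of a difference therefore need not match those of the PGE2 effects it is made of. CPM used the TMM-adjusted library totals. The code was checked on simulated counts.

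No replicates repeated a library: counts of replicate pairs differed by 2.27 to 17.4 times sampling noise (chi-square per degree of freedom). Control shRNA replicate 2 stood apart, at 12.1 to 17.4 against replicates 1 and 3, while these differed from each other by 2.81 to 3.36. Libraries with the same replicate number within a hairpin deviated together in all 6 pairs (r 0.106 to 0.433). Pairs of other numbers within a hairpin had r of -0.324 to 0.160, and same-number pairs across hairpins -0.0227 to 0.251, so the ranges overlapped. The number was treated as pairing libraries within a hairpin, and a fit with that block is an alternative.

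Members, gene lists and named genes were chosen with earlier results of these data known. Named genes were Etv1, Got1, Arg1, Retnla, Chil3, Crem and Ptgs2, the 15 highest and 15 lowest called differences with at least 5 CPM in 1 group and a symbol, up to 3 called members of each list by adjusted p, and 5 genes of each wild type class. Other list members with values were picked after their values were seen. Values of some members are not reported here. Alternatives were DESeq2 1.42.0, limma 3.58.1 voom with sample weights, other scaling factors and filters, thinned counts, the 12 libraries alone and each library left out.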

Additional observations from a re-analysis of the deposited data

Results flagged for a closer look

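Of the 100 genes chosen for naming, 89 drew attention because the tested difference between the PGE2 effect in Etv1 shRNA cells and that in control shRNA cells passed the threshold (edgeR adjusted p under 0.05). Values are log2 differences with 3 libraries a group. For 71 of the 89 the call held without every one of the 12 libraries in turn. Values below 0 were -4.64 for Tnfrsf9, -3.36 for Tlr5, -3.06 for Ccl24, -2.93 for Dusp5, -2.81 for Timp1 and -2.58 for Nr4a3. Further negative values were -2.49 for F10, -2.36 for Fzd6, -2.28 for Cass4, -2.09 for Nr4a2, -1.94 for Hilpda and -1.93 for Socs3. The differences were also -1.90 for Vegfa, -1.86 for Ltb4r1, -1.64 for Cd86, -1.47 for Il1rn, -1.46 for Ndrg1 and -1.37 for Cd83. These were followed by -1.26 for Fosl1, -1.25 for Ier3, -1.24 for Sik1, -1.09 for Clec7a, -1.08 for Slc16a1 and -0.98 for Odc1. Next came -0.98 for Cd80, -0.95 for Plaur, -0.93 for Slc16a3, -0.88 for Crem, -0.83 for Stard4 and -0.82 for Klf4. Values nearer 0 were -0.78 for Maf, -0.76 for Acsl4, -0.76 for Crtc3, -0.51 for Tgfb1, -0.50 for Itgav and -0.41 for Srebf2. Also below 0 were -0.36 for Elk1. Values above 0 were 2.00 for Ptchd1, 1.87 for Plscr4, 1.84 for Lrrc39, 1.79 for Serpinb6b, 1.78 for Cdcp1 and 1.54 for Lpl. Further positive values were 1.50 for Cenpf, 1.49 for Cd180, 1.43 for Pimreg, 1.37 for Chn2, 1.37 for Lrfn4 and 1.36 for Ccnb2. Positive differences were also 1.25 for Atp6v0d2, 1.22 for Ccnb1, 1.11 for Atf3, 1.10 for Slc25a13, 1.02 for Nrp1 and 0.94 for Cebpa. After these came 0.91 for Akap13, 0.90 for S1pr2, 0.87 for Phgdh, 0.86 for Tbxas1, 0.81 for Adcy9 and 0.78 for Idh2. Lower positive values were 0.71 for Pfkp, 0.66 for Ddit3, 0.64 for Mthfd2, 0.63 for Hadhb, 0.61 for Mcm6 and 0.58 for Lipa. Still lower values were 0.56 for Pla2g4a, 0.33 for Psap and 0.32 for Erf. The fitted value of Tnfrsf9 rests on a group with 3 counts or fewer over its 3 libraries and depends on the prior count. Other values also rest on few counts, such as those of Tlr5 and Ccl24. Control shRNA libraries without PGE2 held 5, 3 and 3 counts of Tlr5 and 3, 3 and 9 of Ccl24. For some of these genes the difference of the changes in mean CPM had the opposite sign to the log2 difference. In Fzd6 the rise was 6.67 CPM in Etv1 shRNA and 4.96 CPM in control shRNA cells. Lrrc39 fell by 5.12 CPM in Etv1 shRNA cells and fell by 3.51 CPM in control shRNA cells. The sign also differed in Ccl4, Itga6, Lpl, Maf, Map2, Ptprf and Rnf183.

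The other 18 lost their call without at least 1 library, where "alone" means IL-4 without PGE2 and p-values are from edgeR with Benjamini-Hochberg adjustment. Gm38079, at -5.26, lost its call without replicate 1, 2 or 3 of Etv1 shRNA with PGE2, replicate 2 of Etv1 shRNA alone, replicate 2 or 3 of control shRNA with PGE2, or replicate 1, 2 or 3 of control shRNA alone (adjusted p of 0.0519 to 0.355). Nrg1, at -4.38, lost its call without replicate 1 or 2 of Etv1 shRNA alone, or replicate 2 or 3 of control shRNA alone (adjusted p of 0.0593 to 0.158). Ptprf, at -2.76, lost its call without replicate 1 of control shRNA alone (adjusted p = 0.102). Adm, at -2.48, lost its call without replicate 3 of Etv1 shRNA alone (adjusted p = 0.0922). Thbs1, at -2.27, lost its call without replicate 1 or 3 of Etv1 shRNA with PGE2, replicate 1, 2 or 3 of Etv1 shRNA alone, or replicate 1 or 3 of control shRNA alone (adjusted p of 0.0577 to 0.0861). Rnf183, at -2.07, lost its call without replicate 1 or 3 of Etv1 shRNA with PGE2, replicate 2 of Etv1 shRNA alone, replicate 1, 2 or 3 of control shRNA with PGE2, or replicate 2 or 3 of control shRNA alone (adjusted p of 0.0505 to 0.128). Ccl4, at -1.45, lost its call without replicate 1, 2 or 3 of Etv1 shRNA with PGE2, replicate 3 of Etv1 shRNA alone, replicate 1 or 3 of control shRNA with PGE2, or replicate 3 of control shRNA alone (adjusted p of 0.0522 to 0.0811). Cd14, at -1.40, lost its call without replicate 1 of Etv1 shRNA with PGE2, replicate 3 of Etv1 shRNA alone, or replicate 1 or 3 of control shRNA alone (adjusted p of 0.05 to 0.0605). Elk4, at -0.44, lost its call without replicate 1 or 3 of Etv1 shRNA with PGE2, replicate 2 or 3 of Etv1 shRNA alone, replicate 2 or 3 of control shRNA with PGE2, or replicate 1 or 3 of control shRNA alone (adjusted p of 0.0506 to 0.0926). Nr1h2, at -0.24, lost its call without replicate 1, 2 or 3 of Etv1 shRNA with PGE2, replicate 2 or 3 of Etv1 shRNA alone, replicate 2 or 3 of control shRNA with PGE2, or replicate 1 or 3 of control shRNA alone (adjusted p of 0.0656 to 0.135). Sdhc, at 0.25, lost its call without replicate 2 or 3 of Etv1 shRNA with PGE2, replicate 2 or 3 of Etv1 shRNA alone, replicate 2 or 3 of control shRNA with PGE2, or replicate 2 or 3 of control shRNA alone (adjusted p of 0.0573 to 0.121). Elovl5, at 0.31, lost its call without replicate 1 of Etv1 shRNA with PGE2, replicate 2 of Etv1 shRNA alone, replicate 3 of control shRNA with PGE2, or replicate 3 of control shRNA alone (adjusted p of 0.0519 to 0.0673). Itga5, at 0.38, lost its call without replicate 2 of Etv1 shRNA with PGE2, replicate 1 or 3 of Etv1 shRNA alone, replicate 1 or 3 of control shRNA with PGE2, or replicate 2 of control shRNA alone (adjusted p of 0.0628 to 0.0833). Itga6, at 0.46, lost its call without replicate 1 or 3 of Etv1 shRNA with PGE2, replicate 2 of Etv1 shRNA alone, replicate 3 of control shRNA with PGE2, or replicate 2 of control shRNA alone (adjusted p of 0.0633 to 0.0883). Igsf9, at 1.47, lost its call without replicate 3 of control shRNA with PGE2 (adjusted p = 0.0537). Etl4, at 1.95, lost its call without replicate 1 or 3 of Etv1 shRNA with PGE2, or replicate 3 of control shRNA with PGE2 (adjusted p of 0.0564 to 0.106). Map2, at 2.90, lost its call without replicate 1 or 3 of Etv1 shRNA with PGE2, replicate 2 or 3 of Etv1 shRNA alone, replicate 1, 2 or 3 of control shRNA with PGE2, or replicate 1 or 2 of control shRNA alone (adjusted p of 0.0513 to 0.109). Fam174b, at 3.26, lost its call without replicate 3 of control shRNA with PGE2 (adjusted p = 0.0919). The fitted values of Gm38079, Nrg1, Map2 and Fam174b rest on a group with 3 counts or fewer over its 3 libraries, and those of Ptprf and Rnf183 on a group with 3 counts or fewer in each library, so all 6 depend on the prior count.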

How the results depend on the processing

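For the PGE2 effect, Etv1 shRNA minus control shRNA, the count of called genes, 1438, became 2563 with the replicate number as a block within each hairpin and 2357 with limma-voom and sample weights. It was 1402 with DESeq2, 1426 with RLE factors, 1445 with upper quartile factors, 1257 without a filter, 1490 in genes of at least 5 CPM, 1997 with a block shared by the hairpins, 1106 after thinning all libraries to equal totals and 1280 in the 12 libraries alone. The causes were not tested. Leaving out 1 library gave 1107 to 1471, the lowest without control shRNA replicate 3 with PGE2, the deepest library. Without both control shRNA replicate 2 libraries, a setting chosen after seeing the data, 1416 were called, of which 44.6% lay above 0, against 51.9% of the 1438. Leaving out 1 library gave 5199 to 5297 genes for PGE2 in Etv1 shRNA cells, 6543 to 7165 for PGE2 in control shRNA cells, 5859 to 6547 for the hairpins with PGE2, 5548 to 5981 for the hairpins without it and 6987 to 7280 for PGE2 in wild type cells.

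The block within hairpins ended no call among the 100 genes chosen for naming and made that of Got1, while Fosb, outside these, lost its call (edgeR adjusted p = 0.0862). Got1 was also called in some fits with 1 library left out, where its edgeR adjusted p ran from 0.0227 to 0.174. The block was not run for the hairpins themselves, which it is confounded with. Of the 89 called named genes, 67 kept their call under every setting. Lrrc39, Elk1 and Phgdh lost it only after thinning, and Erf after thinning and without both control shRNA replicate 2 libraries. Sign changes were seen in 4 named genes that were not called. Retnla was at -0.11 after thinning and between -0.22 and 0.41 with 1 library left out, Arg1 between -0.18 and 0.16, Edn1 between -0.73 and 0.35, and Rnase2a between -1.14 and 1.32. Single libraries were left out for named genes, not for other list members. Depth limits genes near the floor of 3 counts, and 6 called genes had a group with 3 counts or fewer over its 3 libraries.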
